A study of Homo sapiens with 6 samples.

Results

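The patatin-like phospholipase (PNPLA) family was followed in RNA sequencing libraries of HEK293 cells, an established human embryonic kidney line, with and without MUL1, an E3 ubiquitin ligase of the outer mitochondrial membrane. The family was taken as the 8 genes with the symbols PNPLA1 to PNPLA8, of 57123 genes for which exon counts could be assigned. Libraries came from WT (control) cells and from cells with the genotype MUL1(-/-), 3 of each. Both genotypes were grown untreated in the same serum-supplemented medium. The sources do not say whether the 3 libraries of a genotype came from separate cultures or clones, so p-values measure only the spread between these libraries, which may be technical. Whether a difference between the genotypes came from the loss of MUL1 or from other differences between the cell lines was not tested. In these bulk samples, fewer cells with an RNA and less RNA per cell cannot be told apart.

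Patatin-like enzymes are named after a storage protein of the potato tuber and share a fold in which a serine and an aspartate, rather than the classical triad, cut ester bonds of lipids. PNPLA2, PNPLA3, PNPLA4 and PNPLA5 act on neutral lipids such as the triglycerides of lipid droplets, and PNPLA1 transfers a fatty acid onto ceramide in the skin barrier. PNPLA6 and PNPLA7 break down lysophospholipids at the endoplasmic reticulum, and PNPLA8 is a calcium-independent phospholipase A2 of mitochondria and peroxisomes.

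The reading frames show what joins the members and where their counts bear on the active site. In the coding sequence of 1 GENCODE 29 transcript of each gene (GRCh38), a stretch of 45 bases is shown around the first match to the pattern glycine, any residue, serine, any residue, glycine. Capitals mark the 15 bases of that pattern, whose middle codon encodes the active-site serine.
PNPLA1: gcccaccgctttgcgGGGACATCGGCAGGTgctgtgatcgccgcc
PNPLA2: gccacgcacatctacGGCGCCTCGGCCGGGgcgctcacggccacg
PNPLA3: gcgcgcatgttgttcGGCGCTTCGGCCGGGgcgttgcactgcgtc
PNPLA4: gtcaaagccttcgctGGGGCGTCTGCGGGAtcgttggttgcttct
PNPLA5: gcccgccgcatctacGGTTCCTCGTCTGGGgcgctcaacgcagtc
PNPLA6: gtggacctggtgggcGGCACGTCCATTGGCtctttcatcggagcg
PNPLA7: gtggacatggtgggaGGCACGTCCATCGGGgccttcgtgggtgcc
PNPLA8: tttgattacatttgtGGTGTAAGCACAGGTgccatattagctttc
PNPLA6 and PNPLA7 shared 35 of these 45 bases, more than any other pair, and PNPLA2 and PNPLA5 shared 31. The serine is residue 47 of 504 in PNPLA2 and 47 of 481 in PNPLA3, near the start of the protein. It is residue 966 of 1327 in PNPLA6, 961 of 1317 in PNPLA7 and 483 of 782 in PNPLA8, so their long forms carry the catalytic part towards the end.

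Each library held between 121917971 and 142803296 counts on genes. Reads had been counted in every exon bin they touch, so these totals exceed the number of reads. MUL1 RNA was 16.5 ± 2.15 CPM (counts scaled to a common library size) in WT and 18.2 ± 1.35 in MUL1(-/-) libraries (SD, n = 3 each; log2 fold change 0.14, SE 0.10, edgeR's adjusted p = 0.321), so it does not check the labels. All 8 features of HEK293 cells were detected and tested, and 1 rose and 4 fell at an adjusted p under 0.05 (edgeR). Of all genes tested 18.8% rose and 18.7% fell by that rule. The summed level of the 8 features was 1314 to 1535 CPM in WT and 943 to 1119 CPM in MUL1(-/-) libraries. PAX2, a transcription factor of the developing kidney (log2 fold change -1.80), fell past both thresholds used here (adjusted p under 0.05 and absolute log2 fold change above 1) and the neurofilament gene NEFM (1.06) rose past them, while the keratin gene KRT8 (-0.93) and vimentin (VIM, -0.34) fell at the adjusted p alone. The part of these changes in the PNPLA results was not tested. Markers of mature kidney summed to at most 0.791 CPM in any library.

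The members fell into groups that moved in opposite directions. With edgeR's quasi-likelihood test and Benjamini-Hochberg adjustment over 25125 genes, all 6 members with enough counts to be tested had an adjusted p under 0.05. PNPLA1, PNPLA6 and PNPLA7 rose and PNPLA2, PNPLA3 and PNPLA8 fell in MUL1(-/-) cells. By this rule 18.8% of all genes tested rose and 18.7% fell. With an absolute log2 fold change above 1 required as well, PNPLA1 and PNPLA6 rose and PNPLA3 fell, against 4.23% of all genes rising and 3.87% falling. The 3 WT and 3 MUL1(-/-) values did not overlap in any of the 6 tested members, as in 24.1% of all genes tested with the MUL1(-/-) values above and 24.4% with them below. The median of the absolute log2 fold change was 0.81 over these 6 members and 0.29 over all genes tested. PNPLA4 and PNPLA5 did not pass the filter on low counts and were not tested with it.

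Among the members that act on neutral lipids, PNPLA2 (adipose triglyceride lipase, which takes the first fatty acid from a triglyceride) was the most abundant. Its levels were 83.2, 72.6 and 69.0 CPM in WT replicates 1 to 3 and 56.0, 53.2 and 67.7 CPM in MUL1(-/-) replicates 1 to 3. The highest MUL1(-/-) library came close to the lowest WT library, and with CPM taken from library totals the ranges overlapped. PNPLA2 fell by 0.35 on the log2 scale (SE 0.09, edgeR's adjusted p = 0.00922). The call was lost without WT replicate 1 (edgeR's adjusted p = 0.0648), without MUL1(-/-) replicate 1 (0.0669) and without MUL1(-/-) replicate 2 (0.0717).

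The fall of PNPLA2 was even along its coding exons. All 13 coding bins were lower in MUL1(-/-) cells by their means, with log2 ratios from -0.39 to -0.28, and in 9 of them the genotypes did not overlap. Over all genes, 20.1% of bins with at least 50 counts had every MUL1(-/-) value above every WT value and 20.8% had every value below. In the bin that holds the active-site serine (chr11:819574-819905) the levels were 6.10, 4.88 and 5.05 CPM in WT and 4.21, 3.90 and 5.12 CPM in MUL1(-/-) libraries, which overlap. Exon bins that touch a gene on the other strand held 36.1% of the PNPLA2 counts, and without them the log2 fold change was -0.33 (edgeR's adjusted p = 0.0132).

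PNPLA3 (adiponutrin, a lipid droplet protein that acts on triglycerides and retinyl esters) fell by a larger factor. Its levels were 6.60, 7.30 and 6.46 CPM in WT and 3.42, 3.88 and 2.62 CPM in MUL1(-/-) libraries. Every WT library was above every MUL1(-/-) library by a wide margin. The log2 fold change was -1.04 (SE 0.14, edgeR's adjusted p = 2.98e-05), a level 2.05-fold lower in MUL1(-/-) cells. It sat near the threshold of 1, at -0.90 without MUL1(-/-) replicate 3 and -0.99 without WT replicate 2.

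All 14 PNPLA3 bins with at least 50 counts were lower in MUL1(-/-) cells, with no overlap in any of them and log2 ratios from -1.59 to -0.59. In the bin of the active-site serine (chr22:43923803-43924086) the counts were 56, 70 and 58 in WT and 31, 33 and 29 in MUL1(-/-) libraries. The value rests on leaving out 2 exons further along the chromosome, which a PNPLA3 transcript marked for nonsense-mediated decay shares with SAMM50, a gene for a mitochondrial outer membrane assembly protein. These exons held 64.6% of all counts on PNPLA3 exons, at 9.23 ± 0.794 CPM in WT and 9.41 ± 0.619 CPM in MUL1(-/-) libraries (SD, n = 3 each). With them counted for PNPLA3, an alternative added after seeing the data, the log2 fold change was -0.33 (edgeR's adjusted p = 0.0067).

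PNPLA4 (which acts on retinyl esters and triglycerides) and PNPLA5 (a triglyceride lipase of lipid droplets) were close to the limit of detection. PNPLA4 had 0, 2 and 0 counts in WT and 2, 4 and 5 counts in MUL1(-/-) libraries. The ratio of the summed counts, scaled for library size, was 5.78, with an exact 95% interval from 1.26 to 53.6 that covers counting error only. Since 1 read can be counted in several bins, these counts are not independent reads and the interval is too narrow. PNPLA5 had no counts in the WT libraries, where a floor of 3 counts per library allows up to between 0.0212 and 0.0238 CPM. In MUL1(-/-) libraries it had 4, 4 and 2 counts, a mean of 0.0266 CPM, or 1.16-fold the mean WT floor. These counts are themselves near the floor, and MUL1(-/-) replicate 3 (0.0161 CPM) lay under it. The fold is therefore no lower bound on a difference. No library held more than 2 counts in any single bin of PNPLA4 or PNPLA5, and neither gene had a count in its active-site bin in MUL1(-/-) cells.

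PNPLA1, the transacylase that makes acylceramide in keratinocytes, had the largest log2 fold change of the members tested, on few counts. It had 5, 12 and 7 counts in WT and 30, 31 and 20 counts in MUL1(-/-) libraries. All 3 MUL1(-/-) libraries were above all WT libraries, and the log2 fold change was 1.81 (SE 0.39, edgeR's adjusted p = 0.0018). As 1 read can be counted in several bins, these counts may hold fewer independent reads. A filter of at least 1 CPM in 3 libraries removed the gene.

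The counts of PNPLA1 lay away from the exon that encodes its active site. In that 205-base exon (chr6:36270460-36270664) the WT libraries had no counts and the MUL1(-/-) libraries had 1, 0 and 1. The exon belongs to the transcripts PNPLA1-203 and PNPLA1-204, which encode 532 and 533 residues. For these the annotation gives no complete start of the RNA, while their coding start is not marked incomplete. PNPLA1-201 and PNPLA1-202 encode 446 and 437 residues without the serine pattern. The 13 bins of those shorter transcripts, most of which the longer transcripts also use, held 5, 10 and 6 counts in WT and 24, 29 and 17 counts in MUL1(-/-) libraries. At this depth the presence of the catalytic exon in PNPLA1 RNA was not measurable.

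Markers of keratinocytes, where PNPLA1 is known to act, were also measured. Of 6 matched markers 2 were tested, and both passed an adjusted p under 0.05 upward, with filaggrin (FLG) at 0.956 ± 0.339 and 3.10 ± 0.445 CPM (SD, n = 3 each; log2 fold change 1.70, edgeR's adjusted p = 1.26e-05). By that rule 18.8% of all genes tested rose. The summed level of the list was 23.2 to 27.9 CPM in WT and 36.4 to 50.7 CPM in MUL1(-/-) libraries, nearly all of it KRT10. The defining basal keratins KRT5 and KRT14 were too low to be tested. The part of these genes in the PNPLA1 result was not tested.

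PNPLA6 (neuropathy target esterase, a lysophospholipase of the endoplasmic reticulum that is named for the nerve damage caused by its inhibitors) doubled in level. Its levels were 26.8, 23.8 and 25.3 CPM in WT and 55.0, 49.1 and 48.0 CPM in MUL1(-/-) libraries. The lowest MUL1(-/-) library was far above the highest WT library. The log2 fold change was 1.01 (SE 0.08, edgeR's adjusted p = 2.59e-07), a 2.01-fold higher level. It fell to 0.96 without MUL1(-/-) replicate 1 and also without WT replicate 2, below the threshold of 1 but with an adjusted p of at most 8.19e-06 (edgeR).

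All 44 coding bins counted for PNPLA6 were higher in MUL1(-/-) cells with no overlap between genotypes, at log2 ratios from 0.70 to 1.43. In the bin of the active-site serine (chr19:7555607-7555763) the levels were 0.795, 0.750 and 0.929 CPM in WT and 1.47, 1.60 and 1.36 CPM in MUL1(-/-) libraries. These 157 bases therefore moved with the rest of the coding sequence.

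By the means of its bins, the 5′ end of PNPLA6 rose less than the rest. Transcript PNPLA6-220 begins inside the gene at position 7535706 of chromosome 19, in an intron of the forms that start upstream, and opens its frame at position 7535789, in place of the start codon at 7535551 that PNPLA6-201 uses. The boundary at its first exon was chosen after the bins had been seen, so the following values are a description with no test, and they include bins shared with the overlapping genes MCOLN1 and AC008878.2. Bins before the boundary summed to 2.09, 2.37 and 2.29 CPM in WT and 3.77, 3.00 and 2.05 CPM in MUL1(-/-) libraries, which overlap, with a log2 ratio of the means of 0.39. Bins from the boundary on summed to 29.9, 26.2 and 28.1 CPM in WT and 61.9, 56.3 and 55.7 CPM in MUL1(-/-) libraries, with a log2 ratio of 1.05. Without overlap between genotypes were 3 of 12 bins before it and 57 of 59 bins from it on, among those with at least 50 counts.

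The first exon of PNPLA6-220, up to where it meets the exon used by other forms, had 52, 32 and 24 counts in WT and 98, 87 and 78 counts in MUL1(-/-) libraries, a log2 ratio of 1.35. The 69-base exon with the upstream start codon had 38, 45 and 34 counts in WT and 50, 40 and 35 counts in MUL1(-/-) libraries, a log2 ratio of 0.17. That exon is shared with another gene and the first exon of PNPLA6-220 is not, so these ratios come from unlike bins. The share of PNPLA6 counts that lay before the boundary was 7.46% ± 0.878 in WT and 4.79% ± 1.12 in MUL1(-/-) libraries (SD, n = 3 each). This share includes the bins shared with other genes. Using only bins shared with no other gene, the log2 ratios were 0.59 before the boundary and 1.02 from it on, so the gap between the stretches was smaller. Before the boundary, those bins summed to 0.661, 0.841 and 0.921 CPM in WT and 1.65, 1.24 and 0.759 CPM in MUL1(-/-) libraries. Of the MUL1(-/-) libraries, only replicate 3 lay within the WT range.

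**Figure D1:**
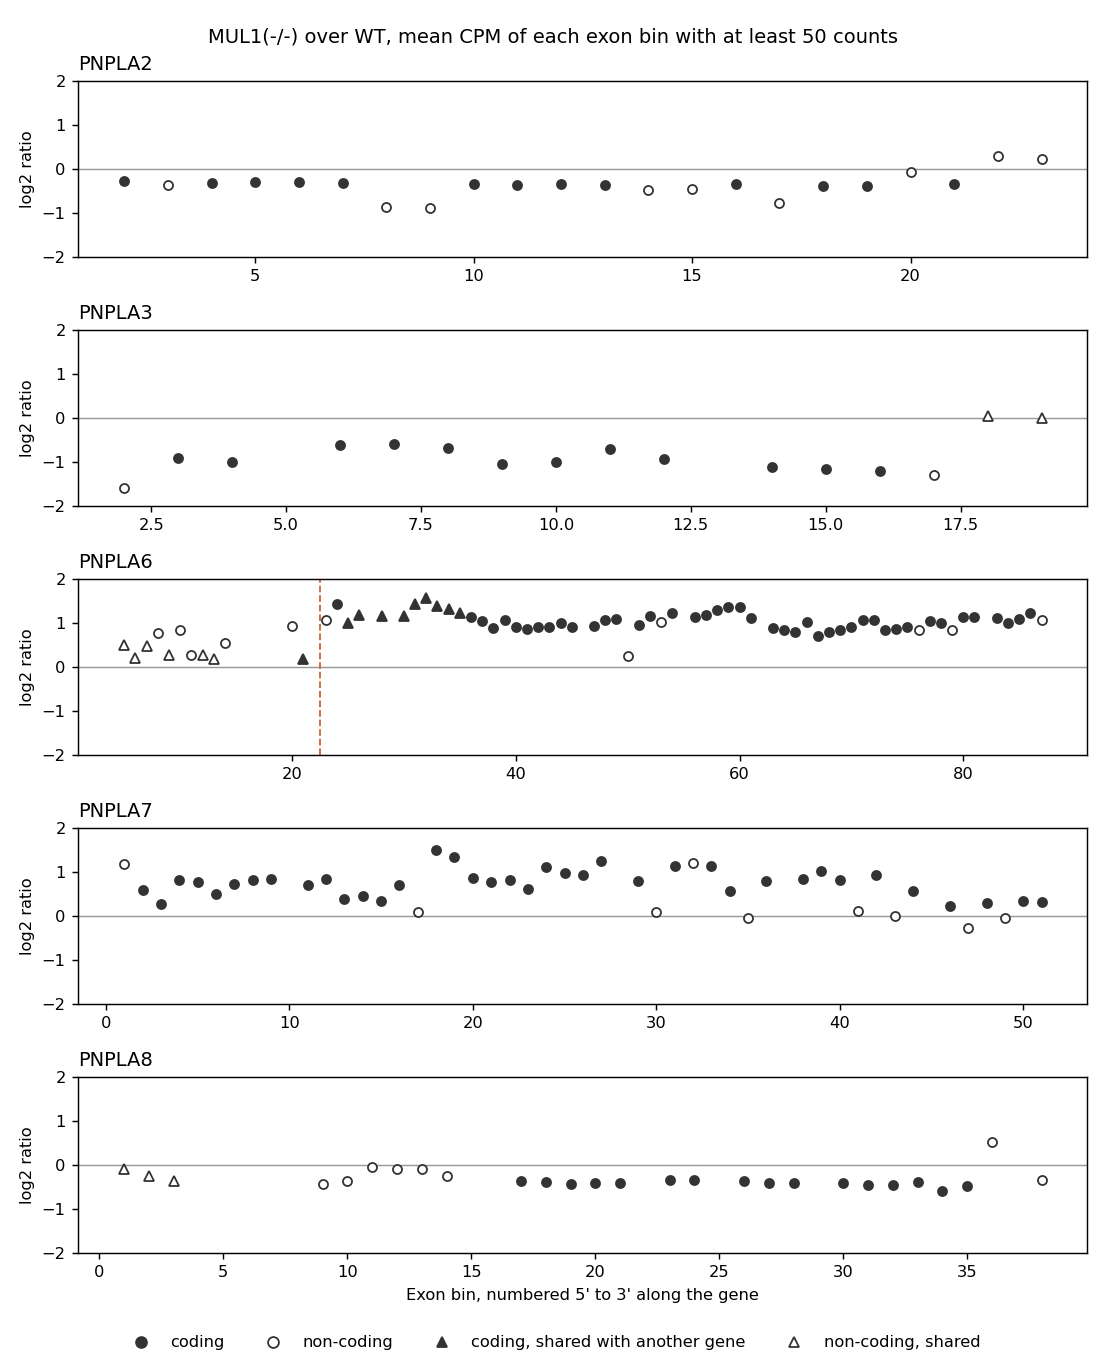
Log2 ratio of mean CPM in MUL1(-/-) over WT libraries (vertical axis) for each exon bin with at least 50 counts, numbered 5′ to 3′ along 5 members (horizontal axis). Filled symbols are coding bins, open symbols non-coding, triangles bins shared with another gene, and the dashed line in PNPLA6 marks the internal start, before which the bins run from 0.17 to 0.94 with a median of 0.38 and from which on they run from 0.26 to 1.56 with a median of 1.06, so the ranges overlap.

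The sequence just upstream of the internal PNPLA6 start is shown because bins before that start summed to a lower log2 ratio. It runs from the last upstream exon to the start of PNPLA6-220, chr19:7535583-7535705 on the plus strand (GRCh38.p14, RefSeq). Capitals mark its only match to ACGTG on either strand, 46 bases before the start. ACGTG is a form of the core of a hypoxia response element, whose first base can also be G. The form GCGTG also occurs in this stretch, where it is not marked, and was not searched in the windows that follow.
PNPLA6 internal start: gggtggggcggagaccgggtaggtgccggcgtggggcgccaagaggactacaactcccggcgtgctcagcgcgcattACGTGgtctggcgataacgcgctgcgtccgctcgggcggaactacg
Of 13 RefSeq start windows of 6 members, each from 250 bases before to 50 bases after a start, ACGTG on either strand was in 2, this window of PNPLA6 and 1 of 2 windows of PNPLA8. The 4 upstream windows of PNPLA6 held none. Of 35116 such windows of all genes, 21.4% held ACGTG. Its palindromic extension CACGTG was in none of the 13 windows and in 7.26% of all windows.

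PNPLA7, the closest relative of PNPLA6 and also a lysophospholipase, rose less. Its levels were 5.15, 5.52 and 6.52 CPM in WT and 9.57, 8.56 and 8.36 CPM in MUL1(-/-) libraries. The genotypes did not overlap, and the log2 fold change was 0.62 (SE 0.11, edgeR's adjusted p = 4.99e-04). When each gene was counted by its most counted bin alone, the log2 fold change was 0.32 and the call was lost (edgeR's adjusted p = 0.333).

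The rise of PNPLA7 differed between kinds of bin. Coding bins summed to 3.79, 4.37 and 5.11 CPM in WT and 7.97, 7.02 and 6.78 CPM in MUL1(-/-) libraries, a log2 ratio of 0.71. Non-coding bins summed to 1.36, 1.15 and 1.41 CPM in WT and 1.60, 1.53 and 1.58 CPM in MUL1(-/-) libraries, a log2 ratio of 0.27. All 38 coding bins with at least 50 counts had a higher mean in MUL1(-/-) cells, 23 of them without overlap, but of 9 such non-coding bins only 5 did. In the bin of the active-site serine the counts were 19, 18 and 35 in WT and 39, 31 and 34 in MUL1(-/-) libraries, which overlap.

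PNPLA8, the phospholipase A2 that acts on the phospholipids of mitochondria, fell by a small factor. Its levels were 36.1, 34.6 and 39.5 CPM in WT and 26.1, 30.2 and 28.6 CPM in MUL1(-/-) libraries, with no overlap. The log2 fold change was -0.38 (SE 0.08, edgeR's adjusted p = 0.00211). All 16 coding bins were lower with no overlap, at log2 ratios from -0.60 to -0.33, including the bin of the serine, where the counts were 184, 221 and 232 in WT and 142, 165 and 174 in MUL1(-/-) libraries. The non-coding bins of PNPLA8 overlapped, at 4.93 ± 0.428 CPM in WT and 4.50 ± 0.118 CPM in MUL1(-/-) libraries (SD, n = 3 each).

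On the scale of CPM per kilobase of exon bins, the order of the members changed between genotypes. In WT cells the mean CPM per kilobase of exon was 19.5 ± 1.91 for PNPLA2, 6.69 ± 0.452 for PNPLA8, 4.02 ± 0.240 for PNPLA6, 2.20 ± 0.147 for PNPLA3, 0.574 ± 0.0715 for PNPLA7 and 0.0198 ± 0.0076 for PNPLA1 (SD, n = 3 each). Neighbours in that order did not overlap in any WT library. In MUL1(-/-) cells PNPLA6, at 8.08 ± 0.597 CPM per kilobase, stood above PNPLA8, at 5.15 ± 0.380, without overlap. PNPLA3 (1.07 ± 0.207) and PNPLA7 (0.885 ± 0.0648) then overlapped. PNPLA2 lay above 89% of all genes tested on this scale and PNPLA1 above 3.98%.

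The members lie on 7 chromosomes, and for each the 10 nearest tested genes (5 on each side) were set beside it. PNPLA1 (1.81) lay above the range of its neighbours' log2 fold changes, which was -0.10 to 0.61 with a median of 0.16, and PNPLA7 (0.62) lay above its own, which was -0.47 to 0.06 with a median of -0.14. PNPLA3 (-1.04) lay inside the range of its neighbours, from -2.10 to 0.71 with a median of 0.13. Among them MPPED1 fell past both thresholds (-2.10, edgeR's adjusted p = 1.55e-04), and 1 further neighbour fell and 1 rose at an adjusted p under 0.05. For PNPLA2 (-0.35) and PNPLA8 (-0.38) the neighbours' medians were similar, at -0.36 and -0.35, and 6 of 10 neighbours of each fell with an adjusted p under 0.05, of which PIDD1 beside PNPLA2 (-1.13) and LRRN3 beside PNPLA8 (-2.72) passed both thresholds. The falling neighbours of PNPLA2 include AP006621.1 (-0.34), whose exons overlap those of PNPLA2, so it is not a separate measurement. The neighbours of PNPLA6 all had log2 fold changes above 0, from 0.12 to 0.93 with a median of 0.46, and 6 of 10 rose by the test. At the same adjusted p, 18.8% of all genes tested rose and 18.7% fell. The adjacent MCOLN1, a lysosomal channel gene that shares bins with PNPLA6, had 14.3 ± 2.27 and 27.4 ± 2.92 CPM (SD, n = 3 each; log2 fold change 0.93, edgeR's adjusted p = 1.28e-05).

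PNPLA4 on the short arm of the X chromosome lay among genes that were almost lost from the MUL1(-/-) libraries. STS (steroid sulfatase) had 293, 353 and 311 counts in WT and 1, 1 and 1 in MUL1(-/-) libraries, and PUDP (a pseudouridine phosphatase) had 1110, 1116 and 772 counts and 0, 4 and 1. On the other side, ANOS1 (the extracellular protein anosmin) had 4372, 4785 and 3649 counts in WT and 13, 9 and 23 in MUL1(-/-) libraries. TBL1X, a corepressor subunit next along, fell by 3.41 on the log2 scale (edgeR's adjusted p = 2.12e-11). Further out, CD99P1 (-1.09) and HCCS-DT (-1.24) also fell past both thresholds, whereas ARSD rose past them on few counts, with 5, 7 and 3 in WT and 22, 35 and 20 in MUL1(-/-) libraries. MID1, just beyond TBL1X, rose by 0.73 (edgeR's adjusted p = 5.31e-05). PNPLA4 itself, between STS and ANOS1, was near 0 in both genotypes, so its own counts show nothing of this change.

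The genes whose profile over the 6 libraries was most like a member's were found by the root mean square distance of log2 CPM, centred on each gene's mean. For PNPLA3 these were AP005210.1 (distance 0.047), NHS (0.055) and HMGCS1 (0.061), the last the cytosolic enzyme that makes HMG-CoA for cholesterol synthesis. For PNPLA6 they were AC243562.2 (0.031), PDGFRL (0.041) and P3H2 (0.051). For PNPLA2 they were AP006621.1 (0.021), ZFP36L2 (0.036) and CROCC (0.036), the first an antisense gene whose exons overlap those of PNPLA2, so that without strand the reads of the pair cannot be told apart. SLC6A13 (0.145), SLC22A14 (0.150) and VSNL1 (0.159) were nearest to PNPLA1, and AC011495.1 (0.050), ZNF552 (0.051) and HLA-DMA (0.055) to PNPLA7. NR2C1 (0.024), NDUFA5 (0.028) and CCT6P3 (0.032) were nearest to PNPLA8.

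The genes that work beside the PNPLA enzymes were read from 7 lists. Of 75 genes tested on them, each counted once, 1 rose and 5 fell past both thresholds (1.33% and 6.67%), and 21 rose and 19 fell at an adjusted p under 0.05 alone (28.0% and 25.3%). Their median log2 fold change was 0.06, against -0.01 for all genes tested. Of all genes tested, 4.23% rose and 3.87% fell past both thresholds. At the adjusted p alone 18.8% rose and 18.7% fell. The same shares stand beside the counts of each list below.

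Partners of PNPLA2 on the lipid droplet moved in both directions. Of 15 tested, 7 rose and 5 fell at an adjusted p under 0.05. The droplet coat protein PLIN2 had 0.685, 0.962 and 1.06 CPM in WT and 0.206, 0.216 and 0.210 CPM in MUL1(-/-) libraries, and fell by 2.09 on the log2 scale (SE 0.23, edgeR's adjusted p = 6.26e-06). The related PLIN4 had 1.54, 1.73 and 1.60 CPM in WT and 3.95, 4.07 and 3.56 CPM in MUL1(-/-) libraries, and rose by 1.25 (SE 0.13, edgeR's adjusted p = 2.63e-06). These opposite moves left the median of the list at 0.31.

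Among 7 tested genes of retinyl ester turnover, which PNPLA3 and PNPLA4 act on, 3 fell past both thresholds. STRA6, the cell-surface receptor that takes up retinol, had 4.37, 3.69 and 3.37 CPM in WT and 0.324, 0.519 and 0.387 CPM in MUL1(-/-) libraries (log2 fold change -3.21, edgeR's adjusted p = 6.61e-09). LRAT, which esterifies retinol, had 44, 52 and 35 counts in WT and 2, 7 and 4 in MUL1(-/-) libraries (log2 fold change -3.22, edgeR's adjusted p = 2.08e-05). DGAT2, which also makes triglycerides, had 2.72 ± 0.471 and 0.737 ± 0.0895 CPM (SD, n = 3 each; log2 fold change -1.88, edgeR's adjusted p = 8.25e-07). The list's median was -0.22, with 2 further genes rising at an adjusted p under 0.05.

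In the list of lysophospholipid and glycerophosphocholine breakdown, the field of PNPLA6 and PNPLA7, 2 of 13 genes rose and 4 fell at an adjusted p under 0.05. Not all of these are breakdown genes, since the list also holds enzymes that add a fatty acid back to lysophospholipids. Of that kind, LPCAT3 (log2 fold change -0.46) and LPCAT4 (-0.63) fell and MBOAT7 (0.41) rose, while LPCAT1 and LPCAT2 were not called. GDPD3, a lysophospholipase D, was the only gene past both thresholds, with 5.39, 4.94 and 3.67 CPM in WT and 1.63, 1.78 and 1.71 CPM in MUL1(-/-) libraries (log2 fold change -1.45, edgeR's adjusted p = 2.91e-06). None of the genes that rose there reached the fold of PNPLA6.

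No gene of the other 4 lists passed both thresholds. Of 10 other neutral lipid hydrolases 3 rose and 3 fell at an adjusted p under 0.05, among them LDAH (log2 fold change -0.70), LIPA (-0.53) and NCEH1 (0.75). Of 9 genes of acylceramide synthesis and of later skin barrier steps, 3 rose and none fell by that rule. These were SLC27A4 (0.50), and ALOX12B (0.64) and ALOXE3 (0.72), which act on acylceramide after PNPLA1 has made it. Of 8 genes of cardiolipin synthesis and remodelling 1 passed an adjusted p under 0.05, TAFAZZIN (-0.35), and the next by p were PLA2G6 (-0.21) and CRLS1 (0.13). Of 13 transcription factors of lipolysis and lipogenesis 4 rose and 3 fell, including SREBF1 (0.66), a known activator of PNPLA3, as well as NR1H2 (0.55) and MLXIPL (-0.65).

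Adipocyte and hepatocyte markers were measured for PNPLA2, PNPLA3 and PNPLA5, which are best known from those cells. The 6 hepatocyte markers summed to 0.467 to 0.572 CPM in WT and 0.460 to 0.663 CPM in MUL1(-/-) libraries, with APOB at 0 in all 6 libraries. The 6 adipocyte markers summed to 14.0 to 17.7 CPM in WT and 16.2 to 17.5 CPM in MUL1(-/-) libraries, and 3 of 5 tested rose and 1 fell at an adjusted p under 0.05. Among all genes tested, 18.8% rose and 18.7% fell by that rule. FABP4, a fatty acid-binding protein, passed both thresholds on low levels, at 0.0541 ± 0.0486 and 0.331 ± 0.141 CPM (SD, n = 3 each; log2 fold change 2.61, edgeR's adjusted p = 6.63e-04). Their part in the PNPLA results was not tested.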

How the data were processed

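RNA of 3 WT and 3 MUL1(-/-) HEK293 samples was sequenced. The deposited files hold raw read counts per exon bin under Ensembl gene identifiers. Per the submitters' processing notes, Trimmomatic 0.36 and STAR 2.5.2b were used with GRCh38; the counting program is not given in the sources used here. Bins were summed per gene; of 54848 identifiers, 2031 join several genes, and their bins were given to the 1 gene whose GENCODE 29 exons cover them or left out (4.35 to 4.44% of counts). Opposite strands and paralogs may share reads.

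MUL1(-/-) was compared with WT by edgeR 4.0.16 (quasi-likelihood, TMM, filterByExpr, Benjamini-Hochberg over 25125 genes), called at an adjusted p of 0.05, with and without an absolute log2 fold change above 1. CPM use TMM-scaled library sizes. The SE given is the absolute log2 fold change divided by the square root of the test's F statistic. In data simulated for this comparison with the same dispersion for every gene, 188 of 200 genes changed by 2 on the log2 scale were recovered with 2 false calls. Only calls past both thresholds were scored, and every tested member changed by less than 2. Calls at the adjusted p alone were therefore not checked. DESeq2 1.42.0, limma 3.58.1, other scalings, filters, bin choices and each library left out were alternatives. 1 count was worth 0.0070 to 0.0082 CPM.

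Named were all members, MUL1, pathway list genes past both thresholds (otherwise the 3 with the smallest p), neighbours past both thresholds and the 3 nearest profiles. MID1, MCOLN1, SAMM50 and the marker genes were named after their values were seen. Members and lists were chosen with earlier results of these data known.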

Additional observations from a re-analysis of the deposited data

How the results depend on the processing

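Across 16 alternative settings the direction of each tested PNPLA gene was kept wherever a value was obtained; the filter of 1 CPM and the most counted bin gave none for PNPLA1. Without the filter on low counts, edgeR also tested PNPLA4 (adjusted p = 0.153) and PNPLA5 (adjusted p = 0.0208), so that 3 members passed both thresholds upward and 4 rose at an adjusted p under 0.05, against 2 and 3. DESeq2 gave these 2 genes no adjusted p. The call of PNPLA2 was lost without WT replicate 1, MUL1(-/-) replicate 1 or MUL1(-/-) replicate 2, with log2 fold changes from -0.46 to -0.26 over the left-out libraries. The call of PNPLA7 was lost with the most counted bin (0.32). Members past both thresholds upward went from 2 to 1 under the 1 CPM filter and the most counted bin, and were 1 to 2 over the left-out libraries. Downward the count went from 1 to 0 with library totals and with shared bins counted for each gene (chosen after seeing the data), and was 0 to 1 over the left-out libraries. At an adjusted p under 0.05 alone, 1 member rose with the most counted bin, against 3. Genes of the lists past both thresholds upward were 2 with the most counted bin and 1 to 2 over the left-out libraries, and downward 3 under the 1 CPM filter, against 1 and 5. The level of PNPLA7 in WT was 0.665 CPM per kilobase as a median over bins, against 0.574. The cause of these changes was not tested, except that fewer genes enter under the 1 CPM filter.

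With the replicate block, the log2 fold changes were 1.83 for PNPLA1, -0.35 for PNPLA2, -1.05 for PNPLA3, 1.00 for PNPLA6, 0.63 for PNPLA7 and -0.38 for PNPLA8, and no call of a member changed. Samples with the same number correlated at -0.0812, 0.157 and 0.10 in their deviations from the group means, so the numbers were not taken to pair the samples.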
